A study of Mus musculus with 20 samples.

Results

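Peaks of 14 CUT&Tag libraries were examined at 9 genes for neuronal RNA-binding proteins, Elavl2, Elavl3, Elavl4, Celf3, Celf4, Rbfox1, Rbfox3, Nova1 and Nova2. The genes were chosen by name, and a peak was assigned to a gene when it overlapped the gene body or the 50 kb on either side in mm10. The 9 windows were set beside the windows of all 21887 protein-coding genes of the RefSeq GRCm38.p6 annotation, which has the primary chromosomes of mm10. In CUT&Tag, a transposase tethered by an antibody cuts the chromatin around the antibody's target, and the released fragments are sequenced.

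All libraries came from C57BL/6J mouse embryos at E11.5 (embryonic day), with no mutant allele or treatment in the labels. The dissected tissue is labelled CVGs, the usual abbreviation for cochleovestibular ganglia, which give rise to the hearing and balance neurons of the inner ear. The antibodies were against ISL1, a LIM homeodomain transcription factor (groups ISL1_26, n = 1, and ISL1_70, n = 3), POU4F1, a POU homeodomain factor (n = 2), and the histone marks H3K4me3 (n = 2), H3K27ac (n = 3) and H3K27me3 (n = 3). The 6 IgG libraries (IgGR, n = 3, and IgGM, n = 3) were not analysed here. The labels give neither the meaning of 26 and 70 nor say if a group's libraries are from different embryos, so p-values measure the spread between these libraries, which may be technical. Nuclei came from whole ganglia, and a peak from a few cells cannot be told apart from a weaker one in many.

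ELAVL proteins bind U-rich and AU-rich stretches of RNA and act on RNA stability, translation and splicing. ELAVL2, ELAVL3 and ELAVL4 (also called HuB, HuC and HuD) are the neuronal members and are widely used as markers of young neurons. CELF proteins bind GU-rich RNA, RBFOX proteins bind a UGCAUG element and NOVA proteins bind clustered short pyrimidine-flanked motifs, and all 3 families set neuronal splicing patterns. RBFOX3 carries the NeuN epitope used to stain mature neurons. Among the marks, H3K4me3 lies at promoters, H3K27ac at active promoters and enhancers, and H3K27me3 at Polycomb-repressed chromatin.

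The peak lists differed in length, from 8855 peaks (H3K27ac replicate 1) to 168144 (H3K27ac replicate 3) on chromosomes 1 to 19, X and Y, and read depth is unknown. The library labelled H3K4me3 replicate 1 had peaks up to 87.9 kb long, as H3K27me3 replicates 2 and 3 did (87.7 and 88.3 kb), against 7.53 kb for H3K4me3 replicate 2, and was kept apart. H3K27me3 replicate 1 had narrower peaks (median 350 bp) than replicates 2 and 3 (855 and 574 bp). Its best peaks at the 9 genes had fold enrichments (a ratio) of 1.99 to 5.96, while those of replicates 2 and 3 reached 107 and 169. At Elavl4, Celf3 and Nova2 its best peak had a −log10 q of 1.09, close to the cutoff. All peaks of a list passed a −log10 q of 1. Of the marker genes checked, 9 of 12 for ganglion neurons carried H3K27ac within 1 kb of a gene end in at least 2 libraries, as did 3 of 6 for Schwann cells and neural crest, 2 of 6 for otic epithelium, 0 of 6 for mesenchyme and 1 of 6 for endothelium and blood, beside 50% of all genes. H3K27me3 in at least 2 libraries was at 11, 4, 5, 6 and 1 genes of these lists in the same order, beside 20.6% of all genes, and 1 ganglion neuron marker had H3K27ac without it. The part of the other cell types in the peaks below was not tested.

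To set lists of different length side by side, the number of peaks per length of a gene's window was divided by the same number summed over all gene windows of that list. This relative peak density is 1 where a window holds as many peaks per length as gene windows do on average. The 9 windows are long: between 52.1% and 99.9% of protein-coding genes have a shorter window than a given one of them. Gene neighbours fall in some windows, with 6 other genes in those of Elavl3 and Nova2, 5 in Celf3, 2 in Rbfox3, 1 each in Elavl4 (Agbl4) and Celf4, and 0 in Elavl2, Rbfox1 and Nova1. All 9 genes had a peak in ISL1_26 replicate 1 and ISL1_70 replicates 1 and 3, where 95.4, 95.1 and 85.5% of all windows had one, and 8 of 9 had one in ISL1_70 replicate 2 (71.4%). The 9 genes all had a peak in H3K27ac replicates 1, 2 and 3 (57.1, 82.6 and 91.3%), in H3K27me3 replicates 1 and 3 (70.3 and 72.5%) and in H3K4me3 replicate 2 (80.3%). In H3K27me3 replicate 2 there was a peak at 7 of 9 (50.1%), and in the library labelled H3K4me3 replicate 1 at 8 of 9 (53.6%).

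In the ISL1 libraries, Rbfox3, Celf4 and Elavl4 had the highest relative peak densities of the 9 genes. Their means were 2.31 ± 0.346, 2.12 ± 0.391 and 2.02 ± 0.316 (SD, n = 4 libraries). Nova2 followed at 1.52 ± 0.532, Elavl3 at 1.33 ± 0.903, Rbfox1 at 1.04 ± 0.190, Nova1 at 0.898 ± 0.557, Elavl2 at 0.880 ± 0.50 and Celf3 at 0.856 ± 0.756. Neighbours in this order differed by less than the larger of their SDs. In ISL1_26 replicate 1, 8 of 9 genes stood above 1 (44.1% of all windows), and the counts were 8 of 9 (45.3%), 6 of 9 (37.6%) and 5 of 9 (44.1%) in ISL1_70 replicates 1, 2 and 3. The median of the 9 was 1.162, 1.504, 1.571 and 1.285 in these 4 libraries, beside 0.8972, 0.9203, 0.7996 and 0.9163 over all windows.

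H3K27me3 gave another order, with Nova2, Elavl3 and Celf4 at the top and Rbfox1 and Elavl4 at the bottom. The means were 4.06 ± 2.34 for Nova2, 2.97 ± 0.410 for Elavl3 and 2.56 ± 0.488 for Celf4 (SD, n = 3), and these neighbours differed by less than the larger SD. Rbfox3 stood at 1.38 ± 0.0467, below Celf4 by more than either SD and with no overlap of libraries. Nova1 had 1.20 ± 0.881, Celf3 0.911 ± 0.879, Elavl2 0.905 ± 0.617, Rbfox1 0.296 ± 0.0864 and Elavl4 0.238 ± 0.288. For H3K27ac, Rbfox3 led at 2.60 ± 1.42, followed by Elavl3 at 2.32 ± 0.562, Celf3 at 1.98 ± 1.23, Celf4 at 1.78 ± 0.645, Nova2 at 1.62 ± 0.572, Elavl4 at 1.33 ± 0.230, Nova1 at 0.773 ± 0.902, Elavl2 at 0.604 ± 0.144 and Rbfox1 at 0.476 ± 0.160. Neighbours in the H3K27ac order again differed by less than the larger SD. Above 1 stood 5, 6 and 5 of 9 genes in H3K27me3 replicates 1, 2 and 3 (40.5, 30.2 and 37.4% of all windows) and 6 of 9 in each of H3K27ac replicates 1, 2 and 3 (45.3, 40.4 and 46%). In POU4F1 replicates 1 and 2 it was 5 and 3 of 9 (43.5 and 40.8%).

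**Figure D1:**
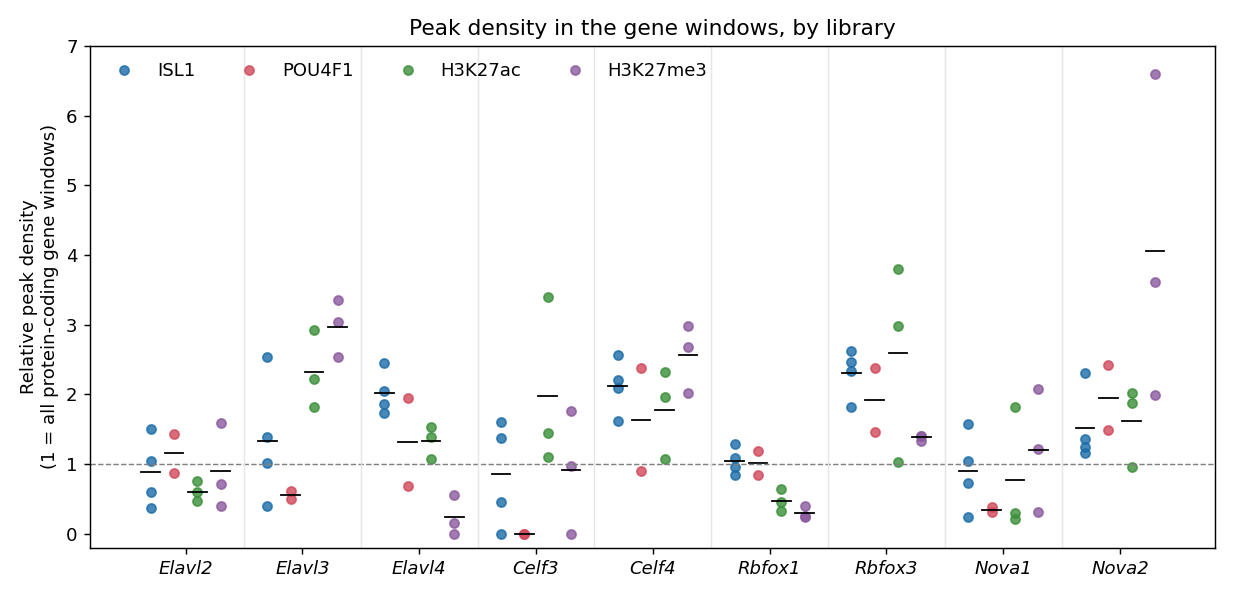
Relative peak density (y axis, no unit) of the 9 genes (x axis) in each ISL1 (n = 4), POU4F1 (n = 2), H3K27ac (n = 3) and H3K27me3 (n = 3) library; points are libraries, black bars are means and the dashed line marks 1. The ISL1 points of Elavl4 lie between 1.73 and 2.45 and its H3K27me3 points between 0 and 0.558, while the H3K27me3 points of Nova2 reach 6.59.

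Elavl4 encodes HuD, which stabilizes mRNAs of neuronal growth and differentiation genes, and its window (gene chr4:110203737-110351939) held ISL1 and H3K27ac peaks with almost no H3K27me3. The 4 ISL1 libraries (ISL1_26 replicate 1, then ISL1_70 replicates 1, 2 and 3) held 22, 17, 7 and 8 peaks, and the POU4F1 libraries held 7 and 2. H3K27ac replicates 1, 2 and 3 held 2, 22 and 35 peaks, and H3K27me3 replicates 1, 2 and 3 held 2, 0 and 1. As relative peak densities, these were 2.05, 1.86, 2.45 and 1.73 for ISL1, 1.08, 1.38 and 1.53 for H3K27ac, and 0.558, 0 and 0.156 for H3K27me3. Every ISL1 library was above every H3K27ac library, and every H3K27ac library was above every H3K27me3 library.

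ISL1 and H3K27ac peaks of Elavl4 met at its upstream start and around a group of internal starts. A region called in 3 ISL1 libraries, chr4:110351296-110352710, covered the upstream start, where the best Elavl4 peaks of ISL1_26 replicate 1 and of H3K27ac replicates 2 and 3 lay. These ranked within the strongest 2.61%, 0.323% and 0.387% of their lists by −log10 q. A peak of H3K27me3 replicate 1 also overlapped this region. H3K27ac replicate 1 and H3K4me3 replicate 2 had no peak within 1 kb of the upstream start. Another region called in 3 ISL1 libraries, chr4:110292063-110293596, lay inside the gene 4.54 kb from the nearest annotated start and overlapped H3K27ac in 2 libraries and H3K4me3 replicate 2. At the internal starts themselves, ISL1_26 replicate 1 and H3K27ac replicates 1, 2 and 3 had peaks, and the 6 peaks of H3K4me3 replicate 2 in this window were all inside the gene. The library labelled H3K4me3 replicate 1 had 0 peaks here.

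The promoter windows of the upstream start (chr4:110351862-110352161, minus strand, GRCm38.p6) and of an internal start (chr4:110287462-110287761, minus strand) are shown because both carried ISL1 and H3K27ac peaks and differ in sequence. Sequences here and below are RefSeq promoter windows, from 250 bases before to 50 after an annotated start, 5′ to 3′ on the gene's strand. Capitals mark CG dinucleotides (CpG) and matches of 3 homeodomain-type motifs, namely TAATTA as a first motif, then CTAATG as another motif and last ATTAAT, on either strand.
Elavl4 upstream start: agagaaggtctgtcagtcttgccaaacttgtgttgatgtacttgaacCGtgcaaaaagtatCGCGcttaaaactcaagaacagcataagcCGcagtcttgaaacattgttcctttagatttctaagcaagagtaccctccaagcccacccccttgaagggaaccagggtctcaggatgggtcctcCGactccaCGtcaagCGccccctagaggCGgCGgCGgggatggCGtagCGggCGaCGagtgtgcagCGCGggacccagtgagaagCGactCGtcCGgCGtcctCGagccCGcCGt
Elavl4 internal start: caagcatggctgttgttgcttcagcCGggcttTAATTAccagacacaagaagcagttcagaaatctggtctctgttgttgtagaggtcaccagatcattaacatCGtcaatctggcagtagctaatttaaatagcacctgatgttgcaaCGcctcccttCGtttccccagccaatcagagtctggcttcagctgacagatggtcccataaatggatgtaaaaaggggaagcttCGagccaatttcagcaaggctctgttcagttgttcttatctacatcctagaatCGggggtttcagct
The upstream window holds 23 CpG and 0 of the motifs. The internal window holds 6 CpG and 1 TAATTA, a match that 5.3% of all 32817 promoter windows have.

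Elavl3 encodes HuC, and its window (gene chr9:22015005-22052146) was rich in both H3K27ac and H3K27me3. The H3K27me3 libraries held 6, 5 and 9 peaks and the H3K27ac libraries 3, 16 and 28. ISL1 gave 6, 7, 4 and 1 peaks and POU4F1 gave 1 and 1. The best H3K27me3 peak of replicates 2 and 3 was not at Elavl3 but over the neighbours Rgl3 and Ccdc151, 21.7 and 21.2 kb away from it. At the start of Elavl3 itself, peaks of H3K27ac replicates 1, 2 and 3, of H3K4me3 replicate 2 and of H3K27me3 replicates 2 and 3 lay on the same promoter window. The H3K4me3 replicate 2 peak there, chr9:22049147-22052161, ranked within the strongest 0.0892% of its list. The promoter window (chr9:22051974-22052273, minus strand) is shown for its CpG content and its overlapping marks.
Elavl3 start: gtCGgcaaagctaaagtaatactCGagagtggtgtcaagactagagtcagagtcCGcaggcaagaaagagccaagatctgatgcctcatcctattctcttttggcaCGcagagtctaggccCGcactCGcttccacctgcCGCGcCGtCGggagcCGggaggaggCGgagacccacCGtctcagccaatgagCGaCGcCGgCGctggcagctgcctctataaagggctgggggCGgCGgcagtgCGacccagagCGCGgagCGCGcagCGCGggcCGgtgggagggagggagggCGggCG
It holds 29 CpG, more than 87.1% of all promoter windows, and 0 of the motifs.

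Elavl2 encodes HuB, and its window (gene chr4:91211533-91400108) held 13, 16, 2 and 2 ISL1 peaks. H3K27ac gave 1, 11 and 20 peaks and H3K27me3 gave 3, 5 and 3. H3K27me3 peaks of all 3 libraries overlapped the promoter window of an internal start at position 91372055 of chromosome 4, which holds 25 CpG, and those of replicates 2 and 3 covered the start itself. H3K4me3 replicate 2, H3K27ac replicate 2 and POU4F1 replicate 2 peaks overlapped the same window, and no ISL1 library had a peak within 1 kb of the start. The single ISL1 region of Elavl2 called in at least 2 libraries, chr4:91179762-91180950, lay in the flank 191 kb from the nearest annotated start and overlapped POU4F1 replicate 1 and H3K27ac in 2 libraries.

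Celf3 and Celf4 encode brain-enriched CELF splicing regulators, and they differed in ISL1 peaks. Celf3 (chr3:94478285-94496786) held 7, 7, 0 and 1 ISL1 peaks, and no region of its window was called in 2 ISL1 libraries. Of these peaks, 2, 2, 0 and 0 overlapped Celf3 itself. In ISL1_26 replicate 1 and ISL1_70 replicate 1, 5 each lay in neighbouring genes, with the best over Riiad1. Celf3 was also the gene with 0 peaks in both POU4F1 libraries. H3K27ac replicates 1, 2 and 3 held 3, 11 and 12 peaks at Celf3, and each had one on the promoter window of its first start. H3K27me3 replicates 1 and 3 had a peak within 1 kb of that start, and H3K27me3 replicate 2 had 0 in the whole window. The best peaks of H3K27ac replicates 1 and 2 and of H3K27me3 replicate 3 overlapped Riiad1 as well as Celf3.

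Celf4 (chr18:25477620-25754520) held 36, 29, 7 and 18 ISL1 peaks, which gave relative peak densities of 2.21, 2.09, 1.62 and 2.56. H3K27ac gave 3, 56 and 68 peaks and H3K27me3 gave 11, 11 and 29, so all 3 targets stood above 1 in every library. Of the 14 ISL1 regions called in at least 2 libraries, all inside the gene, 9 overlapped H3K27ac in at least 2 libraries and 4 overlapped H3K27me3 in at least 2. The region called in all 4 ISL1 libraries, chr18:25678811-25681687, overlapped H3K27ac replicates 2 and 3 and H3K27me3 replicates 2 and 3. The ISL1 peaks in it were not one summit: that of ISL1_70 replicate 2 (chr18:25678811-25679114) ended before that of replicate 3 (chr18:25680760-25681132) began. Whether the marks lie on the same chromosomes or in different cells cannot be told apart in these libraries.

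Rbfox1 and Rbfox3 encode splicing factors that bind UGCAUG, and Rbfox1 has the longest window of the 9 genes, at 1628 kb. Rbfox1 (chr16:5884793-7412480) held 59, 65, 18 and 39 ISL1 peaks, which for its length was close to the mean of all windows, at relative densities of 0.839, 1.08, 0.962 and 1.29. H3K27ac gave 4, 47 and 97 peaks, at 0.329, 0.451 and 0.647, and H3K27me3 gave 6, 7 and 10 peaks, at 0.255, 0.395 and 0.238. Every ISL1 library was above every library of both marks.

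A region inside Rbfox1, chr16:6769112-6771165, held the best Rbfox1 peak of each of the 4 ISL1 libraries. These peaks ranked within the strongest 0.0491%, 0.301%, 0.177% and 0.540% of ISL1_26 replicate 1 and ISL1_70 replicates 1, 2 and 3. By the mean of these percentiles the region ranked 41 among the 1547 regions of the genome called in all 4 ISL1 libraries. A POU4F1 replicate 1 peak (chr16:6770398-6771003) and peaks of H3K27ac replicates 2 and 3 and of H3K27me3 replicate 1 (fold enrichment 1.97) overlapped it. It lies 299 kb from the nearest start in the promoter table.

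The first start of Rbfox1 (promoter window chr16:5884543-5884842, plus strand) is shown because its marks were unlike those of the other genes.
Rbfox1 start: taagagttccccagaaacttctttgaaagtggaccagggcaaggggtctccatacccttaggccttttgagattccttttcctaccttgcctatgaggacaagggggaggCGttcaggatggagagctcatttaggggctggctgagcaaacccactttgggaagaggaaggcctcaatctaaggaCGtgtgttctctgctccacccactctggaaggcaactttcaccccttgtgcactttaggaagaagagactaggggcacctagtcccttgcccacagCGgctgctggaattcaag
H3K27me3 replicates 2 and 3 each had their best Rbfox1 peak there (chr16:5883996-5888129 and chr16:5883654-5889214), as did the library labelled H3K4me3 replicate 1. ISL1_26 replicate 1 had a peak on the window, ISL1_70 replicate 3 and POU4F1 replicate 1 had one within 1 kb, and H3K27ac and H3K4me3 replicate 2 had none. The window holds 3 CpG and 0 of the motifs. The start further inside the gene (position 7069835 of chromosome 16), whose window holds 1 ATTAAT (4.75% of all promoter windows have one), had no peak of any library within 1 kb.

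Rbfox3 (chr11:118489760-118911597) held 59, 35, 14 and 24 ISL1 peaks, at relative densities of 2.62, 1.82, 2.33 and 2.47. H3K27ac replicates 1, 2 and 3 held 4, 127 and 143 peaks, and those of replicate 3 covered 24.9% of the window. H3K27me3 held 10, 8 and 19 peaks, at 1.33, 1.41 and 1.41, and each ISL1 library was above each H3K27me3 library. The widest H3K27me3 peak of replicate 3 (chr11:118565963-118578280, 12.3 kb) lay inside the gene. The best peaks of H3K4me3 replicate 2 (chr11:118907925-118910967) and H3K27ac replicate 3 (chr11:118906489-118913127) lay at the upstream end of the gene. That of H3K27ac replicate 1 (chr11:118907936-118909622) lay near it but more than 1 kb inside the gene.

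Rbfox3 held 2 regions called in all 4 ISL1 libraries, both inside the gene and both on H3K27ac in 2 libraries. The first, chr11:118627446-118629186, also overlapped a POU4F1 replicate 1 peak, and its best peaks ranked within the strongest 1.40%, 4.70%, 2.66% and 13.3% of the 4 ISL1 lists. The second, chr11:118863082-118864038, ranked within 3.75%, 3.81%, 56.7% and 42.3%, so it was strong in 2 lists and in the middle of the other two. Neither overlapped H3K27me3.

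Nova1 and Nova2 encode KH-domain splicing factors of neurons. Nova2 (chr7:18925888-18965319) had the highest mean H3K27me3 density of the 9 genes, with 4, 10 and 13 peaks at relative densities of 1.99, 6.59 and 3.61. In replicate 1, Elavl3 (3.03) and Celf4 (2.02) stood above it. Its ISL1 libraries held 7, 7, 2 and 6 peaks, at 1.16, 1.36, 1.25 and 2.31, and its H3K27ac libraries 1, 18 and 24, at 0.961, 2.02 and 1.87. One ISL1 library stood above the lowest H3K27me3 library, so the targets overlapped. The H3K27me3 peaks were not confined to Nova2: of the 13 in replicate 3, 10 lay in the flanks, and the best peak of replicates 2 and 3 lay over Mypop, 25.7 and 26.3 kb beyond the gene.

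The Nova2 start (promoter window chr7:18925638-18925937, plus strand) is shown because H3K27ac, H3K4me3 and H3K27me3 peaks met on it.
Nova2 start: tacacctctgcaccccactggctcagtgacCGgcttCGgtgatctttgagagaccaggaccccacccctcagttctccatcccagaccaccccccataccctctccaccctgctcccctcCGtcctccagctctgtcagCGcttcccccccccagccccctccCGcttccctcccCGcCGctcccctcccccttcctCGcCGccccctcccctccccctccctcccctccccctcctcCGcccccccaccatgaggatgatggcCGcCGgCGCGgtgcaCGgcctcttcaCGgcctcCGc
It holds 17 CpG and 0 of the motifs. H3K27ac replicates 1, 2 and 3, H3K4me3 replicate 2 and H3K27me3 replicate 2 had peaks on it, and H3K27me3 replicates 1 and 3 had one within 1 kb. ISL1_70 replicate 3 and POU4F1 replicate 1 also had peaks within 1 kb. The leading ISL1 region of Nova2, chr7:18949187-18950318, called in 3 libraries, lay 23.3 kb from that start inside the gene and overlapped H3K27ac in 2 libraries.

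Nova1 (chr12:46697895-46819480) held 10, 6, 4 and 1 ISL1 peaks, 3, 3 and 6 H3K27ac peaks and 1, 5 and 7 H3K27me3 peaks. Its single ISL1 region called in at least 2 libraries, chr12:46818249-46818716, lay 0.051 kb from the annotated start and overlapped H3K27ac in all 3 libraries. The 1 Nova1 peak of H3K27me3 replicate 1 (chr12:46818280-46818971) covered that start and overlapped the same region. H3K27me3 replicates 2 and 3 had their best Nova1 peak in the downstream part of the gene (chr12:46710787-46711073 and chr12:46709160-46709792).

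**Figure D2:**
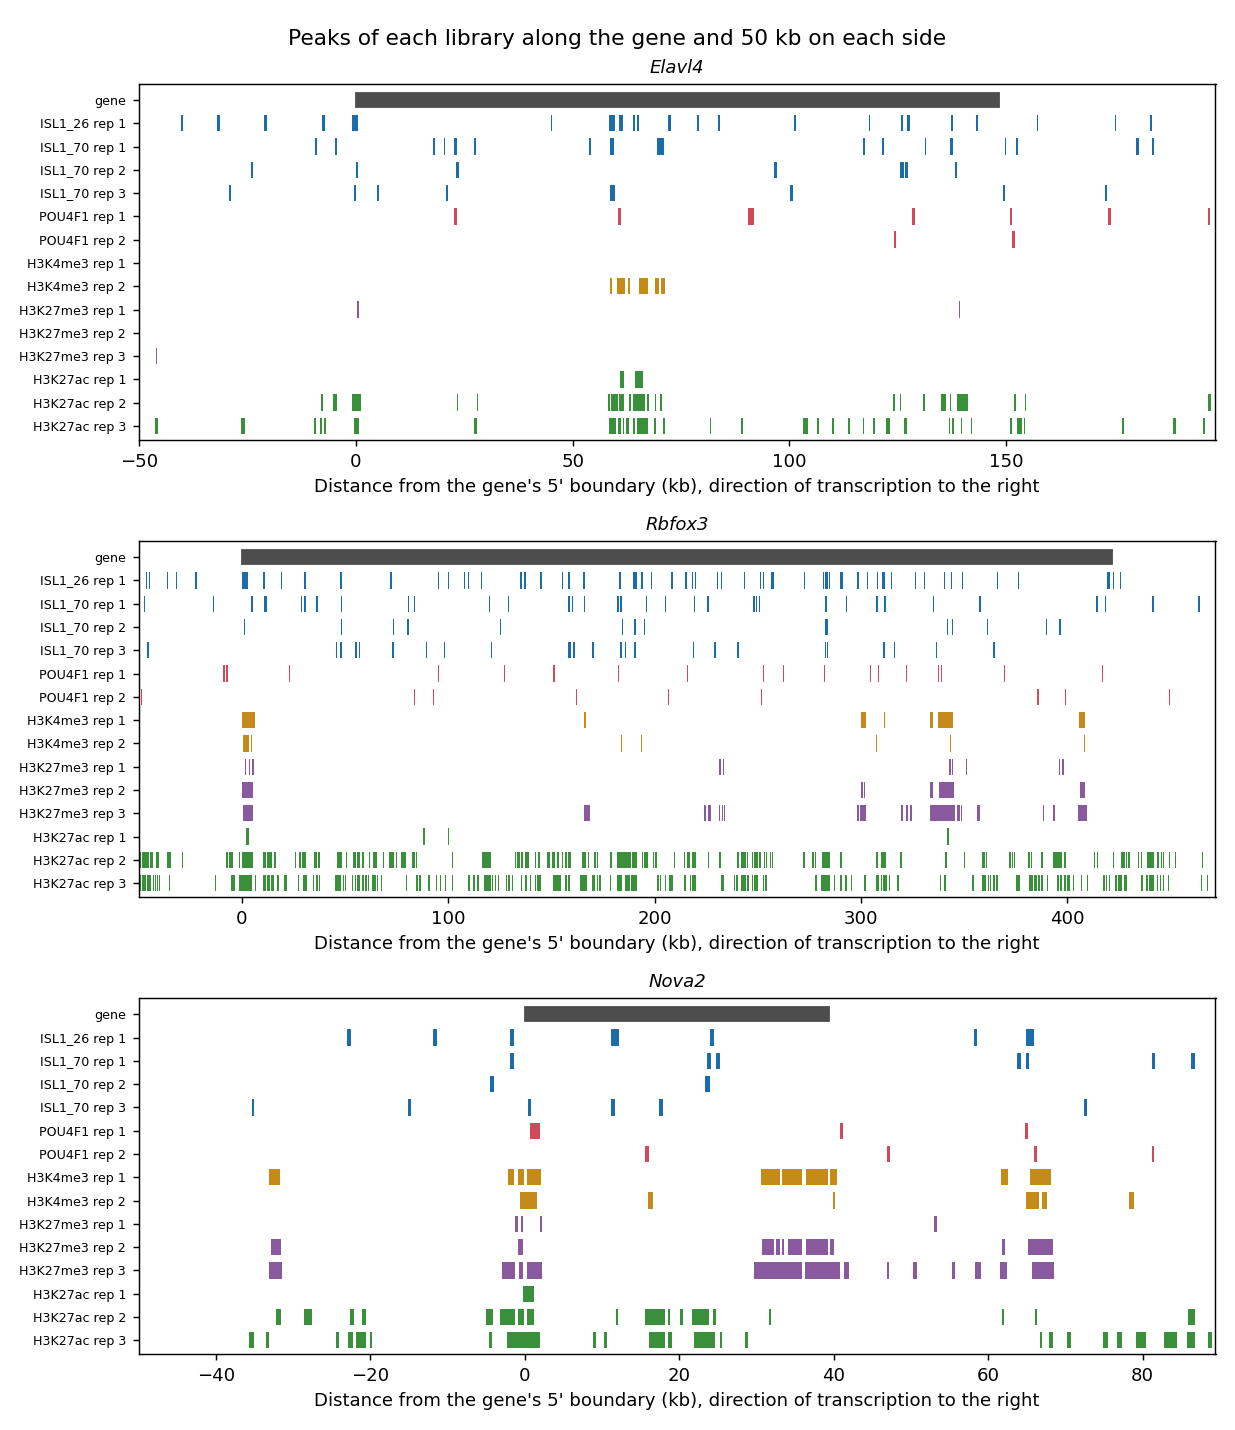
Peaks of the 14 libraries along Elavl4, Rbfox3 and Nova2 with 50 kb on each side; the x axis is the distance in kb from the gene's 5′ boundary, the grey bar is the gene, and each row is a library. Elavl4 shows ISL1 and H3K27ac peaks at the boundary and near 60 kb with 3 H3K27me3 peaks in all, including a replicate 1 peak just inside the boundary. In Nova2, H3K27me3 peaks lie at the start, over the downstream part and beyond the gene.

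The comparison of targets asked whether a window held more of one target than of another, beyond the spread between libraries. limma was fitted to log2(relative peak density + 0.5) in the 10 ISL1, H3K27ac and H3K27me3 libraries over 19310 windows, and all 9 genes passed its filter of 10 peaks. Between ISL1 and H3K27me3, 1348 windows (6.98%) passed an adjusted p of 0.05, 730 (3.78%) higher in ISL1 and 618 (3.2%) lower. Of the 9 genes, Elavl4 was higher in ISL1, with a log2 difference of 1.84 ± 0.396 (SE, limma, adjusted p = 0.0226), beside a median of 0.27 over all windows tested. A call at 1 of 9 genes is to be read against that background, and no share of the 9 is set apart from it.

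The other 8 genes did not pass. Nova2 and Elavl3 had log2 differences of −1.08 ± 0.441 (limma, adjusted p = 0.122) and −1.05 ± 0.440 (limma, adjusted p = 0.129), and Rbfox1 had 0.95 ± 0.373 (limma, adjusted p = 0.109). Rbfox3 had 0.57, and Celf4, Nova1, Celf3 and Elavl2 had −0.22, −0.23, −0.02 and −0.01. All 4 ISL1 libraries were above all 3 H3K27me3 libraries for Elavl4, Rbfox1 and Rbfox3, an order seen in 13.6% of all windows. The exact two-sided permutation test over libraries gave p = 0.0571 for each of these, the smallest value that 4 against 3 libraries allow. The Elavl4 call held in 9 of 19 alternative fits, and its direction in all 19. Fits that changed only H3K27ac libraries, the other targets or the filter could not alter its log2 difference. Leaving out ISL1_26 replicate 1 and using ISL1_70 alone are the same fit, counted under both names. The call was lost without ISL1_26 replicate 1, ISL1_70 replicate 1 or 3 or H3K27me3 replicate 2 or 3, with limma adjusted p from 0.0526 to 0.134. Without H3K27me3 replicate 1, Nova2 also passed as lower in ISL1, at −1.45 (limma, adjusted p = 0.0387).

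Between H3K27ac and H3K27me3, which shares the H3K27me3 libraries with the first comparison, 1566 windows (8.11%) passed and 0 of the 9 genes did. Elavl4 had a log2 difference of 1.37 ± 0.423 (SE, limma, adjusted p = 0.0539) beside a median of 0.20 over all windows, and Nova2 had −1.02 ± 0.472 (limma, adjusted p = 0.174). At an unadjusted limma p under 0.05, these 2 genes of the 9 passed, beside 5228 (27.1%) of all windows. Elavl4 was the gene of the 9 whose 3 H3K27ac libraries all stood above the 3 H3K27me3 libraries (11.8% of all windows). Between ISL1 and H3K27ac, limma called 0 of 19310 windows, with 2433 (12.6%) at an unadjusted p under 0.05 and none of the 9 genes among these. Elavl4 and Rbfox1 had log2 differences of 0.46 and 0.67 there, and their ISL1 libraries were all above their H3K27ac libraries (9.25% of all windows).

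**Figure D3:**
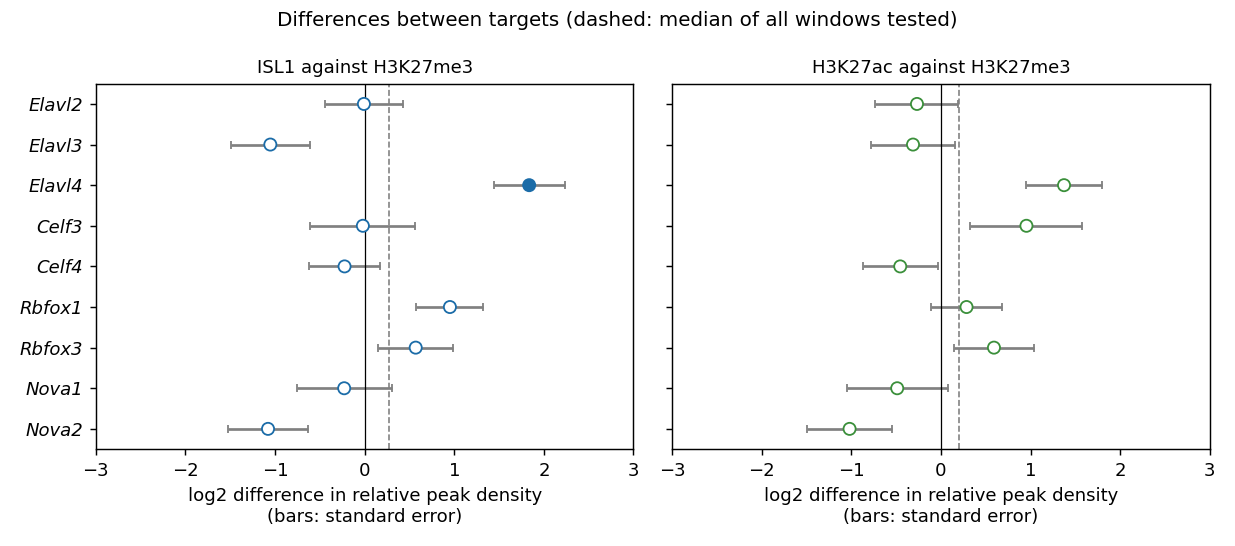
log2 difference in relative peak density (x axis) between ISL1 and H3K27me3 (left, 4 against 3 libraries) and between H3K27ac and H3K27me3 (right, 3 against 3) for the 9 genes (y axis); bars are standard errors, filled points passed an adjusted p of 0.05 and dashed lines are the medians of all windows tested, 0.27 and 0.20. Elavl4 lies farthest to the right in both panels and is filled in the left panel alone, and Nova2 lies farthest to the left in both.

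A region was called replicated when peaks of at least 2 libraries of a target overlapped by 1 bp or more. The 9 windows held 64 replicated ISL1 regions, with 21 in Rbfox1, 14 each in Celf4 and Rbfox3, 7 in Elavl4, 4 in Nova2, 2 in Elavl3, 1 each in Elavl2 and Nova1 and 0 in Celf3. Thus 8 of 9 windows held one, beside 62.1% of all windows, most of which are shorter. Per 100 kb of window, Celf4 had 3.71, Nova2 2.87, Elavl4 2.82 and Rbfox3 2.68 regions, and the median of the 9 was 1.46 beside 0.809 over all windows. A region called in all 4 ISL1 libraries was present in 3 windows (Celf4, Rbfox1 and Rbfox3), beside 8.07% of all windows. These 3 are the longest of the 9, and 97.1, 99.9 and 98.6% of protein-coding genes have a shorter window. Per 100 kb of window, the median of such regions was 0 in the 9 and 0 over all windows. The count of 64 fell to 28 without ISL1_26 replicate 1 and to 30 without ISL1_70 replicate 1.

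Replicated H3K27ac regions lay in all 9 windows (77.2% of all windows), 150 in sum, and replicated H3K27me3 regions in 8 of 9 (50.4%), 41 in sum, with 0 in Elavl4. Of the 64 ISL1 regions, 37 (57.8%, Wilson 95% interval 45.6 to 69.1%) overlapped H3K27ac in at least 2 libraries, beside 46.6% of the 20413 replicated ISL1 regions of the genome. The regions were 959 bp wide in the median, beside 884 bp. By gene, 12 of 14 regions of Rbfox3 overlapped H3K27ac in at least 2 libraries, as did 9 of 14 in Celf4, 8 of 21 in Rbfox1, 3 of 7 in Elavl4 and 2 of 4 in Nova2. H3K27me3 in at least 2 libraries overlapped 8 regions (12.5%, 6.47 to 22.8%), beside 6.43% in the genome, and H3K4me3 replicate 2 overlapped 6 (9.38%, 4.37 to 19.0%), beside 12.5%. The H3K27ac share rests on 2 libraries, since without H3K27ac replicate 2 or replicate 3 it was 1.56%. A region then had to overlap both remaining libraries, of which replicate 1 has the shortest list, with 8855 peaks. These intervals cover counting error only, and regions of one window share their libraries.

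POU4F1 peaks lay in 8 of 9 windows in each library (77.4 and 77.5% of all windows), with Celf3 the exception in both. Of the 64 replicated ISL1 regions, 11 (17.2%, Wilson 9.88 to 28.2%) overlapped POU4F1 replicate 1, beside 14.4% in the genome, and 3 (4.69%, 1.61 to 12.9%) overlapped replicate 2, beside 3.48%. Counted from the POU4F1 peaks, 11 of 69 in replicate 1 (15.9%) and 3 of 47 in replicate 2 (6.38%) lay on a replicated ISL1 region, beside 8.80% and 2.44% of the whole lists. A POU4F1 region present in both libraries occurred at 1 of 9 genes (3.97% of all windows), in Rbfox1 at chr16:6047625-6048183, and it overlapped no ISL1, H3K27ac or H3K27me3 peak. The POU4F1 libraries differed at single genes, with relative peak densities of 2.38 and 0.894 at Celf4 and 1.95 and 0.679 at Elavl4.

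Gene ends, meaning 1 kb on either side of either annotated end of a gene, carried H3K27ac in at least 2 libraries at 8 of 9 genes, beside 50% of all genes. Rbfox1 was the exception, with 0 of 3 libraries. H3K27me3 was present in at least 2 libraries at 6 genes (Elavl3, Celf3, Celf4, Rbfox1, Rbfox3 and Nova2), beside 20.6% of all genes. Both marks met this at 5 genes (Elavl3, Celf3, Celf4, Rbfox3 and Nova2), beside 9.26%. Elavl4, Elavl2 and Nova1 had H3K27ac ends with H3K27me3 in 1 library each, and at Rbfox1 H3K27me3 was present without H3K27ac. H3K4me3 replicate 2 was present at 6 genes, beside 39.6%.

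These counts depended on single libraries. With a library left out, a mark had to be present in both of the remaining ones, so a count could only stay or fall. H3K27ac ends numbered 4 without H3K27ac replicate 2 and 5 without replicate 3, and H3K27me3 ends numbered 3 and 2 without H3K27me3 replicates 2 and 3. ISL1 peaks of at least 2 libraries lay at an end of 5 genes (Elavl4, Celf4, Rbfox1, Rbfox3 and Nova1), beside 23.7%. POU4F1 replicate 1 lay at an end of Rbfox1, Nova1 and Nova2 (3 of 9, beside 12%), and replicate 2 at none (8.14%).

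**Figure D4:**
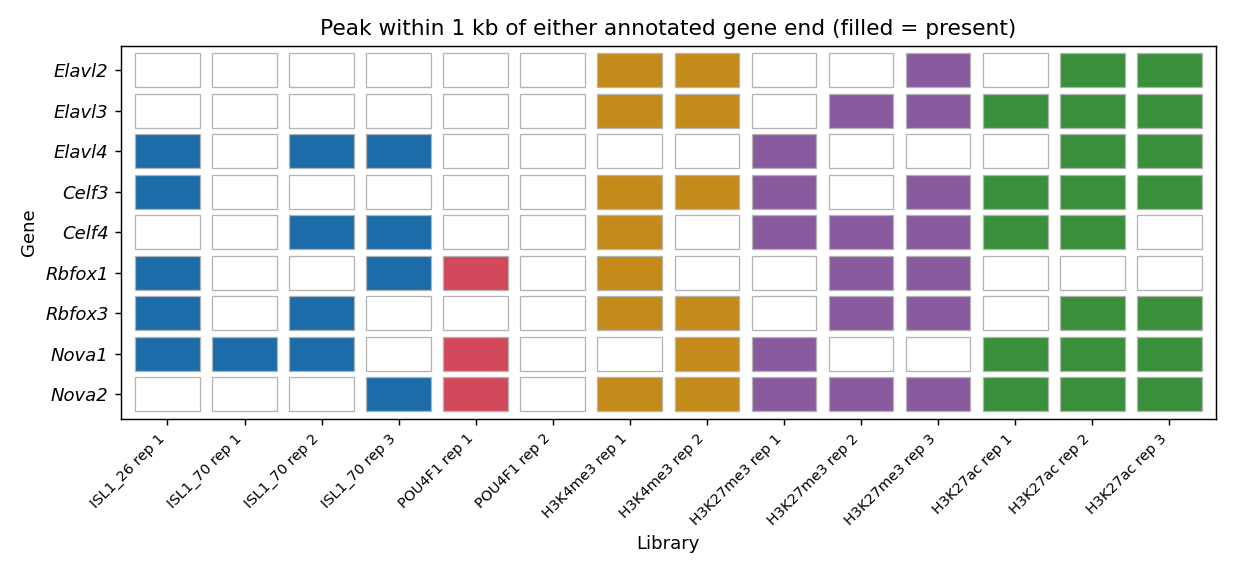
Presence (filled) or absence (white) of a peak within 1 kb of either annotated end of the 9 genes (rows) in the 14 libraries (columns); colours stand for targets. H3K27ac fills at least 2 of its 3 columns for 8 genes and none for Rbfox1, and the POU4F1 replicate 2 column is empty.

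Promoter windows were matched for 8 of the 9 genes, 23 windows in all, with a median of 11 CpG beside 7 over all 32817 windows. The counts ranged from 1 to 29 CpG. Genes with several annotated starts, such as Celf3 and Elavl2, enter once per start and some of their windows overlap. The median therefore leans to such genes. The motif search read both strands, and the first and the last motif can share letters. TAATTA was found in 2 windows, both of overlapping internal starts of Elavl4, CTAATG (which reads CATTAG on the other strand) in 1, an internal start of Celf3 (7.36% of all windows have one), and ATTAAT in 1 of Rbfox1. At the Celf3 start with CTAATG, H3K27ac replicate 3 was the library with a peak.

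A list of 31 other genes for RNA-binding proteins, 4 broad paralogs of these families, 11 other neuronal regulators and 16 regulators of progenitors or non-neuronal cells, was read in the same way. A replicated ISL1 region was present in 25 of the 31 windows, beside 62.1% of all windows. Their windows ran from 105 kb (Zfp36l1) to 957 kb (Celf2), beside a median of 117 kb over all genes. H3K27ac in at least 2 libraries lay at the ends of 25 genes and H3K27me3 at those of 11, beside 50% and 20.6% of all genes. In the limma fit, 3 of 31 were higher in ISL1 than in H3K27me3 and 1 was lower, beside 3.78% and 3.2% of all windows. Between H3K27ac and H3K27me3, 2 were higher and 1 was lower, beside 3.64% and 4.47%.

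Msi2, which encodes a Musashi translational regulator of progenitors, had the most replicated ISL1 regions per 100 kb of the 31, at 5.43, followed by Rbfox2, the broadly expressed RBFOX paralog, at 5.16. Rbfox2 held 7 regions called in all 4 ISL1 libraries, more than the 4 of the 9 neuronal genes together. Its ISL1 and H3K27me3 relative densities averaged 2.86 and 0.421, a log2 difference of 2.13 ± 0.476 (SE, limma, adjusted p = 0.0254), and Msi2 had 2.05 ± 0.493 (limma, adjusted p = 0.0290). Srrm3 and Srrm4, which encode activators of neuronal microexons, followed at 3.57 and 3.16 regions per 100 kb. Khdrbs3 was the other gene higher in ISL1, at a log2 difference of 1.71, and Celf5 was the lower one, at −2.04. Between Rbfox2 and Rbfox1 or Rbfox3 the difference was not tested.

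The gene most like each of the 9 over the 14 libraries was the one of highest Spearman correlation of relative peak density. It was Pde1a for Elavl4 (0.97), Zfyve28 for Elavl3 (0.95), Cd34 for Elavl2 (0.93), Rbbp7 for Celf3 (0.92), Aqp6 for Celf4 (0.93), Unc13c for Rbfox1 (0.95), Kif26b for Rbfox3 (0.95), Neto1 for Nova1 (0.91) and Armcx1 for Nova2 (0.96). Each is the highest of all windows compared, and the libraries share their list lengths across genes, so these values are descriptions.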

How the data were processed

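The values came from 14 peak lists, 1 for each library, that the authors deposited without pooling replicates. Per the file headers (the peak names), peaks were called with MACS2, with a control and options not given in the sources used here. FastQC, Bowtie2, SEACR and mm10 are named in the submitters' processing notes. The deposited lists give the fold enrichment of a peak (a ratio), its p-value and q-value as −log10, and a display score, which was not used. Peaks were ranked within a list by the deposited −log10 q. Longer lists give more peaks per window, which dividing by the list's own mean removes only in part. Depth behind each list is unknown.

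Genes came from a RefSeq table of GRCm38.p6 and promoter windows from a RefSeq table of the same build. The 9 genes and the gene lists were chosen with earlier results of these data known. By rule, the leading replicated ISL1 region of each gene, every region called in all 4 ISL1 libraries and up to 4 genes of the other list were named; other genes, regions and peaks were named after their values were seen. Tests used limma 3.58.1 in R 4.3.3, with Benjamini-Hochberg adjustment over all windows tested and exact permutation tests over libraries (SciPy 1.17.1), all two-sided. The limma step was also run on simulated counts with the total of each list. All simulated libraries shared the same window profile and dispersion, so the unlike lists within a target were not covered. Counts used pandas 2.3.3 and numpy 2.4.6, figures matplotlib 3.10.9. Alternatives covered the window, peak threshold, list length, overlap, replication, pseudocount, filter, measure and libraries. The sequence of peaks, the Celf4 promoter and protein identities were not analysed here.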

Additional observations from a re-analysis of the deposited data

How the results depend on the processing

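Of 534 values of single genes under the alternatives, 485 kept their direction and their side of the threshold. Of the rest, 11, all of Elavl4 for ISL1 against H3K27me3, lost the call, 8 gained a call and 30 changed sign. The exact permutation test (p = 0.0571) is among the 11. The cause of these changes was not tested. Many of the 534 could not change direction. Leaving out a library outside a comparison, adding the other targets or removing the filter cannot alter a log2 difference. Using ISL1_70 alone repeats the fit without ISL1_26 replicate 1. The exact tests cannot pass the threshold, as their smallest possible p is 0.0571 or 0.1. The count of 485 is therefore no measure of robustness. The 64 replicated ISL1 regions became 12 with the 8000 strongest peaks of each list, 37 with 100 bp each side of the summit and 19 with at least 3 ISL1 libraries, and 28 to 53 with a library left out. The 8 genes with such a region became 5 with at least 3 libraries. The H3K27ac share of 57.8% became 21.6% around summits and 84.2% with at least 3 ISL1 libraries, and 1.56% to 64.3% with a library left out. The share over the genome was not computed under these settings, so these values have no background beside them. H3K27ac ends (8 genes) became 5 with the 8000 strongest peaks and 4 to 7 with a library left out. H3K27me3 ends (6) became 2 to 5 with a library left out, where both remaining libraries were required and counts could only stay or fall.

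For ISL1 against H3K27me3, the 1348 windows called became 0 with all 14 libraries in the fit, 3693 with covered bases and 397 with 10 kb flanks. They became 34 with the ISL1_70 libraries alone, and 0 to 3403 with a library left out. The windows tested numbered 7312 with the 8000 strongest peaks, 14520 with 10 kb flanks and 18552 with ISL1_70 alone, against 19310 in the main fit. Counts of calls under these settings are thus of fewer windows, and Celf3 and Nova1 were not tested with the 8000 strongest peaks. The 1 gene called became 0 with the 8000 strongest peaks, all 14 libraries, 10 kb flanks or ISL1_70 alone, 2 with covered bases (Elavl3 at −1.34 added) or no filter (Rbfox1 at 0.95 added), and 0 to 2 with a library left out. For H3K27ac against H3K27me3, the 1566 windows became 791 of the 7312 tested with the 8000 strongest peaks. They became 482 with all 14 libraries and 3116 with covered bases, and 305 to 4426 with a library left out. The 0 genes called became 1 (Elavl4) with covered bases or no filter and 0 to 2 with a library left out. ISL1 against H3K27ac went from 0 windows to 288 of the 7312 tested with the 8000 strongest peaks. The median log2 difference of all windows for ISL1 against H3K27me3 was 0.42 with covered bases and −0.32 with the 8000 strongest peaks, where Elavl4 stood at 2.03 and 2.28.

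With the replicate block (replicate number as a term), 6 windows and 0 of the 9 genes passed for ISL1 against H3K27me3, and Elavl4 stood at 1.83 (limma, adjusted p = 0.0652). Same-numbered libraries correlated at −0.0297 to 0.18 after group means were removed, not each above 0.1. Differently numbered libraries of different targets correlated at −0.209 to 0.102. These ranges overlap, and low correlations cannot exclude pairing, so whether the numbers pair the libraries is not known.

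Signs that changed, as log2 differences: for ISL1 against H3K27me3, Elavl2 became 0.29 with the 8000 strongest peaks and 0.27 with covered bases, Celf3 0.0016 with a pseudocount of 0.25, and Celf4 0.098 and Nova1 0.36 with covered bases. For H3K27ac against H3K27me3, Elavl3 became 0.45 with 10 kb flanks, Rbfox1 −0.27 with the 8000 strongest peaks and Nova1 0.075 with covered bases. For ISL1 against H3K27ac, Rbfox3 became 0.41 with the 8000 strongest peaks and 0.055 with 10 kb flanks, and Nova2 0.023 with ISL1_70 alone or the replicate block. With a library left out, ISL1 against H3K27me3 ranged from −0.28 to 0.32 for Elavl2, −0.64 to 0.44 for Celf3 and −0.69 to 0.15 for Nova1, H3K27ac against H3K27me3 from −0.54 to 0.065 for Elavl2, and ISL1 against H3K27ac from −0.020 to 0.40 for Celf4, −0.47 to 0.28 for Rbfox3, −0.051 to 0.80 for Nova1 and −0.31 to 0.086 for Nova2. None of these passed the threshold in the main comparison. Unknown depth, lists of unequal length and 2 to 4 libraries per target limit the precision.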
